A study of Mus musculus with 32 samples.

Results

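A set of 10 genes encodes abundant proteins of the contractile apparatus in fast-twitch muscle fibres: Mylpf, Myl1, Tnnt3, Tnni2, Tnnc2, Tpm1, Actn3, Acta1, Mybpc2 and Myoz1. They were chosen by gene name, and each name was found once in every table among 53801 gene IDs. All 10 were also among the 12817 genes that entered the tests, each having reached 1 TPM in 4 or more libraries. TPM is a length-scaled share of the RNA of a library. The RNA came from quadriceps, a mostly fast thigh muscle, of 32 mice. Some mice were wild type (WT); the others carried 2 copies of the tm1(KOMP)Vlcg knockout allele of Col6a2, which encodes a chain of collagen VI in the muscle matrix; this allele, made in C57BL/6N, had been crossed to C57BL/6J for 5 generations, and both genotypes came from heterozygous breeders. WT females, WT males, Col6a2-/- females and Col6a2-/- males were each sampled at 5 and at 25 weeks of age, which gave 8 groups of 4 mice with 1 library per mouse.

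In a sarcomere, thin filaments of actin slide along thick filaments of myosin. Tropomyosin and the 3 troponin subunits lie on the thin filament and let calcium control the contact, light chains sit on the neck of each myosin head, and the thin filaments are anchored at the Z-disc. Fast and slow fibres use different genes for most of these parts, so that levels of the fast forms are widely read as a sign of fibre type; Acta1, the skeletal actin, serves both types. Not every one of the 10 products lies on the thin filament: Mybpc2 encodes fast myosin-binding protein C of the thick filament, and Actn3 and Myoz1 encode alpha-actinin-3 and calsarcin-2 of the Z-disc.

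Col6a2 ran from 6.60 to 51.2 TPM in the 16 WT libraries and from 0 to 0.171 in the 16 Col6a2-/- libraries, so the genotype labels held in all of them. The summed TPM of 5 skeletal muscle markers (Ckm, Ryr1, Cacna1s, Des and Mb) was between 3385 and 4920 in every library, as the tissue label says. Inferred depth, read only as a relative measure, differed between 6.78 and 13.69 gigabases per library. Mitochondrial genes took 31.9% to 46.9% of all TPM and the 4 Rn7s genes 20.8% to 30.5%. The 10 contractile genes made up 3.16% to 5.92% of all TPM, and 8.88% to 16.2% of what was left after mitochondrial and Rn7s genes were set aside. In that remainder Tnnt3 ranked 5, Acta1 6, Mylpf 7 and Myl1 9 among all genes by mean TPM. Tnnc2, Tnni2 and Tpm1 ranked 12, 13 and 14, and Actn3, Mybpc2 and Myoz1 ranked 42, 48 and 59. Libraries that stood apart were Col6a2-/- females 2 and 4 at 5 weeks, with limma array weights of 0.154 and 0.326, and WT male 4 at 25 weeks. In TPM this male was far above the rest of its group for 7 of the 10 genes. Of the remainder, the 10 genes made up 13.3% in it and 10.6% to 12.7% in the rest of its group. Values without these libraries are given beside the results they move most.

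On the mouse build GRCm38, Mylpf (ENSMUSG00000030672) spans chromosome 7, 127208890 to 127214298, and Myl1 (ENSMUSG00000061816) spans chromosome 1, 66924295 to 66945404. Tnnt3 (ENSMUSG00000061723, chromosome 7, 142498836 to 142516009) and Tnni2 (ENSMUSG00000031097, chromosome 7, 142441808 to 142444410) are neighbours 54426 bases apart with 1 listed gene, Lsp1, between them. Tnnc2 (ENSMUSG00000017300) lies on chromosome 2, 164777161 to 164779967, and Tpm1 (ENSMUSG00000032366) on chromosome 9, 67022590 to 67049406. Actn3 (ENSMUSG00000006457) lies on chromosome 19, 4861223 to 4877909, and Acta1 (ENSMUSG00000031972) on chromosome 8, 123891769 to 123894751. Mybpc2 (ENSMUSG00000038670) lies on chromosome 7, 44501699 to 44524656, and Myoz1 (ENSMUSG00000068697) on chromosome 14, 20649107 to 20656540. Genes on the other strand overlap 4 of them, and since use of strand is not stated in the sources used here their reads could be mixed: Prr33 (mean 17.5 TPM) overlaps Tnnt3, Ube2c (0.650) overlaps Tnnc2, Gm44646 (0.0211) overlaps Mybpc2, and Gm20388 (listed at 0) overlaps Acta1. Acta1 and the cardiac actin gene Actc1 are near-identical in coding sequence, so reads shared between them make the values of both uncertain.

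RefSeq promoter windows (GRCm38.p6) were available for 6 of the 10 genes; Tnnt3, Tnni2, Actn3 and Myoz1 had no entry. The 250 bases before the start in RefSeq are shown for Mylpf, Myl1 and Acta1, the 3 genes that fell with age, and for Tnnc2, which did not pass the test for age. They lie at chr7:127211358-127211607 on the plus strand, and at chr1:66945057-66945306, chr8:123894776-123895025 and chr2:164779735-164779984 on the minus strand, respectively, each written 5′ to 3′. The RefSeq start differs from the outer end of the gene spans above, which cover all annotated transcripts, so the Mylpf and Myl1 windows and most of the Tnnc2 window lie inside those spans. Capitals mark matches on either strand to the E-box CANNTG (bound by MyoD and its relatives), the CArG box (bound by SRF) or TATAAA.
Mylpf: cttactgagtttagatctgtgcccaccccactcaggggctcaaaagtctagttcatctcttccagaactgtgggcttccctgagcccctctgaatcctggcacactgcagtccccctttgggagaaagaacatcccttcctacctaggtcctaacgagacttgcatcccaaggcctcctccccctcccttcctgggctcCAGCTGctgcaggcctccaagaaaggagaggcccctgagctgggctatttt
Myl1: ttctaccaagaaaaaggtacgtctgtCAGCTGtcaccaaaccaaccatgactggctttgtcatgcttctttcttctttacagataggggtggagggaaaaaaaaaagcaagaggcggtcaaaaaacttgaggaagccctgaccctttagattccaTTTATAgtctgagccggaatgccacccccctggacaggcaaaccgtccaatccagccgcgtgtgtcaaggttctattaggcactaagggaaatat
Acta1: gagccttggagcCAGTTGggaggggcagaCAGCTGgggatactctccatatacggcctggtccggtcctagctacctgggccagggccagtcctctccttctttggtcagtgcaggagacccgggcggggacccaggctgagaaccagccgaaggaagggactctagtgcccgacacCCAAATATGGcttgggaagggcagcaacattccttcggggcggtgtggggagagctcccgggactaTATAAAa
Tnnc2: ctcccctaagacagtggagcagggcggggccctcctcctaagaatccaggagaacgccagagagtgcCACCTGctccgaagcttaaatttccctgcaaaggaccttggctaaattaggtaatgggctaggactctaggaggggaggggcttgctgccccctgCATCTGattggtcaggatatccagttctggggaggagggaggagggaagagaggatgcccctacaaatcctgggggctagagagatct

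Each of the 4 windows held at least 1 E-box, a motif that 66.2% of 32851 windows of this length also held. Mylpf had 1, between 51 and 46 bases before the start, Myl1 had 1, Acta1 had 2 and Tnnc2 had 2. Only Acta1 among the 6 genes had a CArG box, CCAAATATGG, 73 to 64 bases before its start; 1.47% of all windows had one. TATAAA was matched in Acta1, 7 to 2 bases before the start, and on the other strand in Myl1, 95 to 90 bases before it, against 12.4% of all windows. The MEF2 box (2.92% of windows) and TCAGGTT, the MEF3 letters (3.49%), had no match in any of the 6. These are matches of letters in a short window and not measured sites.

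The first comparison asked how loss of Col6a2 bore on these genes in young muscle. At 5 weeks, 7 of the 10 fell in Col6a2-/- muscle: all 3 fast troponins (Tnnt3, Tnni2 and Tnnc2), the tropomyosin Tpm1, the Z-disc genes Actn3 and Myoz1, and the light chain Myl1. Group means were 19.1% to 24.6% lower for these 7. Mylpf, Acta1 and Mybpc2 had lower means by 13.6%, 10.7% and 18.4% and did not pass the test. Genes were called at a limma adjusted p under 0.05 over all tested genes, which 25.4% of the 12817 passed in either direction and 2.14% passed as lower; 8 of the 10 had an unadjusted p under 0.05, against 38.7% of all genes. The median difference of the 10 genes, Col6a2-/- minus WT in log2(TPM + 1), was -0.32, whereas that of all tested genes was 0.15. In a bulk sample a lower share of fast-fibre RNA cannot be told apart from less of these transcripts per fibre.

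The 3 troponins had similar differences. Tnnt3, the fast subunit that ties troponin to tropomyosin, had 7481, 7955 and 9276 TPM as the lowest, median and highest of 8 WT libraries and 5128, 6451 and 8342 in 8 Col6a2-/- libraries. Of the latter, 7 lay below every WT library and the other, female 2, lay inside the WT range. The means were 8097 ± 645 and 6527 ± 978 TPM (SD, n = 8), a difference of -0.32 (SE 0.0837, limma adjusted p 0.00617). Tnni2, the inhibitory subunit, had 4263, 5311 and 5888 TPM in WT and 3508, 4207 and 4616.5 in Col6a2-/-. All 8 Col6a2-/- libraries were below the WT mean of their sex, and WT male 2 at 4263 was the WT library that reached into their range most. Its difference was -0.30 (SE 0.0886, limma adjusted p 0.0137). Tnnc2, the subunit that binds calcium, had 4864, 5615 and 6138 TPM in WT against 3533, 4533 and 5593 in Col6a2-/-. Here 6 of 8 Col6a2-/- libraries were below the lowest WT library. The difference was -0.32 (SE 0.0838, limma adjusted p 0.00576), the smallest adjusted p of the 10 genes.

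Tpm1, the alpha-tropomyosin that covers the myosin sites of actin at rest, had 4418, 5163 and 5884 TPM in WT and 2947, 3969 and 5602 in Col6a2-/- at 5 weeks. Again 6 of 8 Col6a2-/- libraries were below every WT library, and female 2 was the one near the top of the WT range. The means of 5227 ± 542 and 4107 ± 765 TPM (SD, n = 8) differed by -0.36 (SE 0.0998, limma adjusted p 0.00912). Tpm1 has 21 annotated transcripts whose balance a gene-level sum does not show. Tnnc2 and Tpm1 kept their calls at this age in every alternative processing and with any 1 of the 32 libraries left out.

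The largest proportional difference was in Actn3, which crosslinks thin filaments at the Z-disc of the fastest fibres. WT libraries had 987, 1078 and 1341 TPM as lowest, median and highest, and Col6a2-/- libraries 607, 829.9 and 1229. Most Col6a2-/- libraries, 6 of 8, lay below the WT range, while female 2 was above all WT libraries but 1. The difference was -0.44 (SE 0.138, limma adjusted p 0.0208). Myoz1, which links alpha-actinin to calcineurin, had 630.1, 672 and 871 TPM in WT and 451, 572 and 633 in Col6a2-/-. Only 1 WT library, female 4, was below the highest Col6a2-/- library. The difference was -0.32 (SE 0.102, limma adjusted p 0.0211). Both calls hung on few libraries: without Col6a2-/- female 3 the adjusted p (limma) became 0.0535 for Actn3 and 0.0522 for Myoz1, and without WT female 2 it became 0.0549 for Myoz1.

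The light chains varied more. Myl1, the fast essential light chain, had 5743, 7598 and 9713 TPM in WT and 4266, 6054 and 9228 in Col6a2-/-. Only 3 of 8 Col6a2-/- libraries were below the WT range, and female 2 was above 5 of the 8 WT libraries. The difference of -0.34 (SE 0.120, limma adjusted p 0.037) lost its call in 10 of the 32 fits that left out 1 library, over which the adjusted p ran from 0.0021 to 0.0985. This call was also lost after quantile normalization, without a filter, and with length and GC trends removed. Mylpf, the fast regulatory light chain, had 6573, 8829 and 10825 TPM in WT and 5899, 7731 and 9794 in Col6a2-/-, groups that overlapped over most of their range (-0.21, SE 0.103, limma adjusted p 0.129). Acta1, the actin of the thin filament, had 7172, 8615 and 9419 TPM in WT and 6999, 7121 and 9450.1 in Col6a2-/- (-0.17, SE 0.0826, limma adjusted p 0.138). Its highest library of all was Col6a2-/- male 3. Mybpc2 had 659.8, 828 and 1012 TPM in WT and 389, 634 and 1039.8 in Col6a2-/- (-0.33, SE 0.140, limma adjusted p 0.08). Both the lowest and the highest of these 16 Mybpc2 values belonged to Col6a2-/- females.

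**Figure D1:**
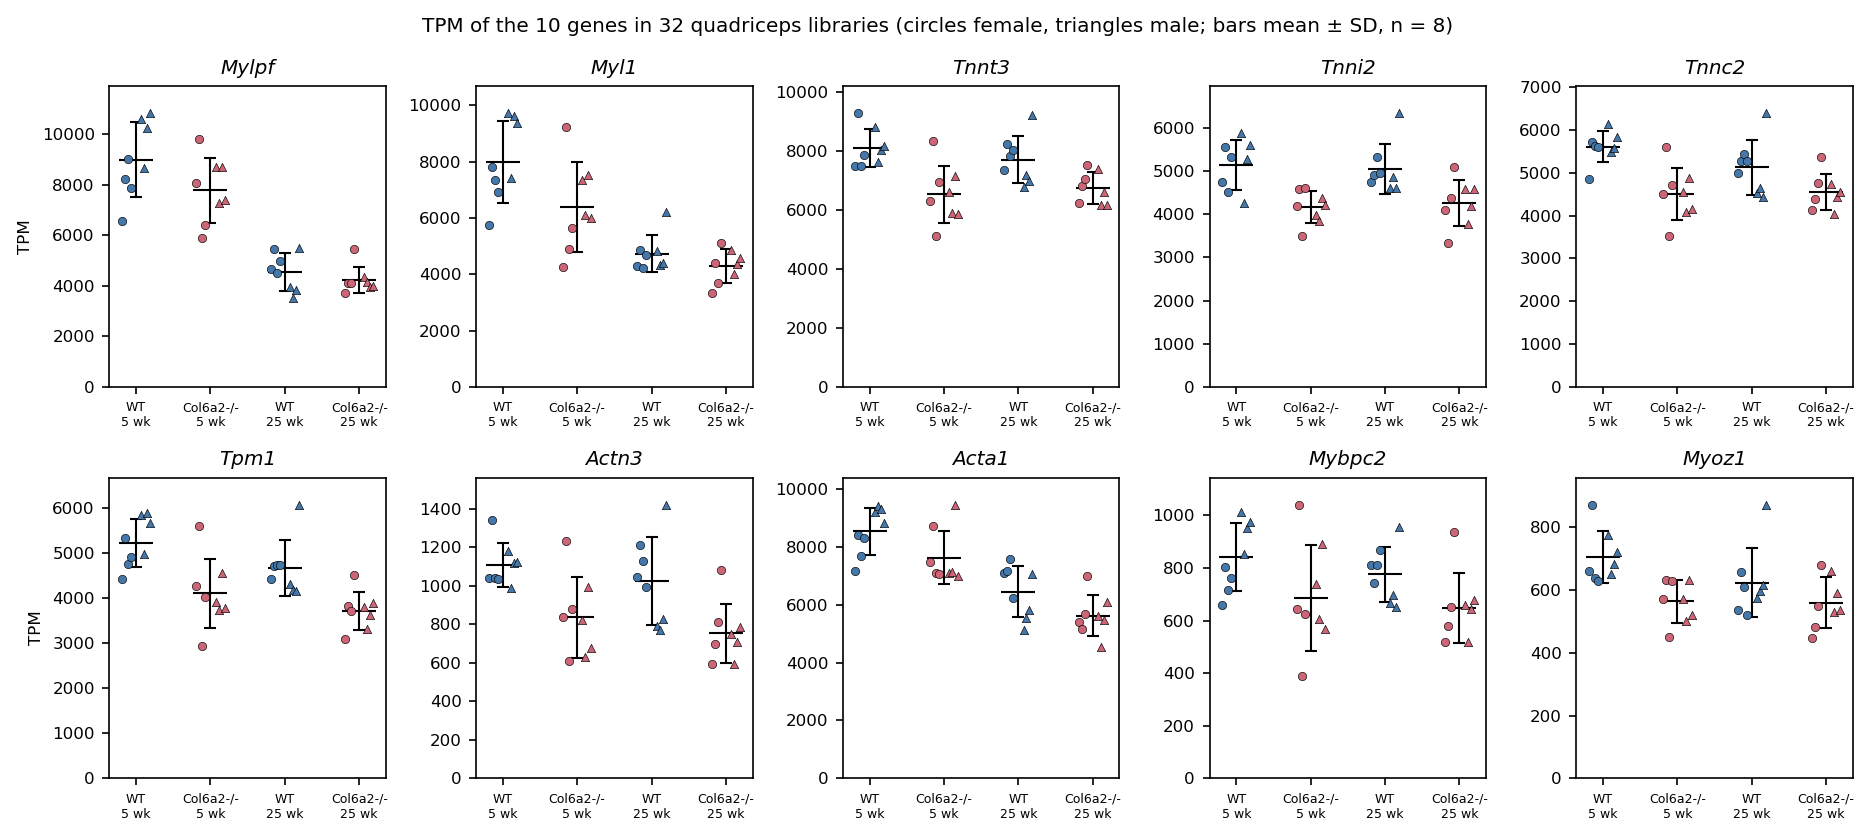
TPM of each of the 10 genes in the 32 quadriceps libraries, by genotype and age, with females as circles, males as triangles and bars at the mean ± SD (n = 8). At 5 weeks most Col6a2-/- points lie low in or below the WT range for the troponins and Tpm1, and at 25 weeks Mylpf and Myl1 lie lower than at 5 weeks in both genotypes.

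For none of the 10 genes did the 8 Col6a2-/- libraries at 5 weeks lie wholly below the 8 WT libraries, which happened for 0.125% of tested genes. Without Col6a2-/- female 2, Mylpf (-0.28, limma adjusted p 0.0488) and Mybpc2 (-0.45, limma adjusted p 0.0123) also passed the test. With females 2 and 4 of that group both left out, an alternative added after the data were seen, the differences of the 10 ran from -0.19 for Acta1 to -0.58 for Actn3.

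At 25 weeks the question was whether the same genes stood lower in adult muscle. By limma 0 of the 10 passed at this age, where 4.7% of all genes did and 0.234% did as lower; 5 of the 10 had an unadjusted p under 0.05, as did 19.3% of all genes. All 10 differences were below 0, from -0.096 for Mylpf to -0.44 for Actn3, and their median was -0.19 beside 0.082 for all tested genes. For none did the genotypes separate without overlap, as they did with lower values in Col6a2-/- for 0.0312% of all genes. The 95% intervals, unadjusted, lay wholly below 0 for Tnnt3, Tnni2, Tpm1, Actn3 and Acta1. Tpm1 had 4167, 4573 and 6074 TPM in WT and 3098, 3759 and 4515 in Col6a2-/- libraries. Of these 8 Col6a2-/- libraries 7 were below the WT range (-0.32, SE 0.0998, limma adjusted p 0.0569). Actn3 had 772, 1019 and 1419 TPM in WT and 592, 729 and 1079 in Col6a2-/- (-0.44, SE 0.138, limma adjusted p 0.0643). Its Col6a2-/- libraries were all below the WT mean of their sex, and the groups overlapped. Tnni2 had a difference of -0.25 (limma adjusted p 0.105), and Mylpf, with means of 4544 ± 737 and 4226 ± 529 TPM (SD, n = 8), had the smallest.

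Some of these adult values rest on 1 library. WT male 4 had 1419 TPM of Actn3 where the other 3 WT males had 772 to 824, and 6074 TPM of Tpm1 where they had 4167 to 4314. Without it the differences at 25 weeks were -0.33 for Actn3, -0.26 for Tpm1 and -0.029 for Mylpf, and no gene was called. Tpm1 passed without Col6a2-/- female 4 of this age (limma adjusted p 0.0425), as did Actn3 (0.034), and each also passed when Col6a2-/- female 2 or 3 of the 5-week group, which shares in the estimate of spread, was left out. Tpm1 passed without female 4 of that group too (limma adjusted p 0.0468).

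The difference between ages was tested itself. The genotype difference at 25 weeks minus that at 5 weeks was called by limma for 0 of the 10 genes, against 0.492% of all genes, and 0 had an unadjusted p under 0.05 (7.01% of all genes did). The estimates ran from -0.031 for Acta1 to 0.20 for Myl1, with a 95% interval of -0.15 to 0.55 for Myl1 and -0.40 to 0.40 for Actn3. For all but Tpm1 and Actn3 the interval included a loss of the whole 5-week difference, so these data do not show that the ages are alike.

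**Figure D2:**
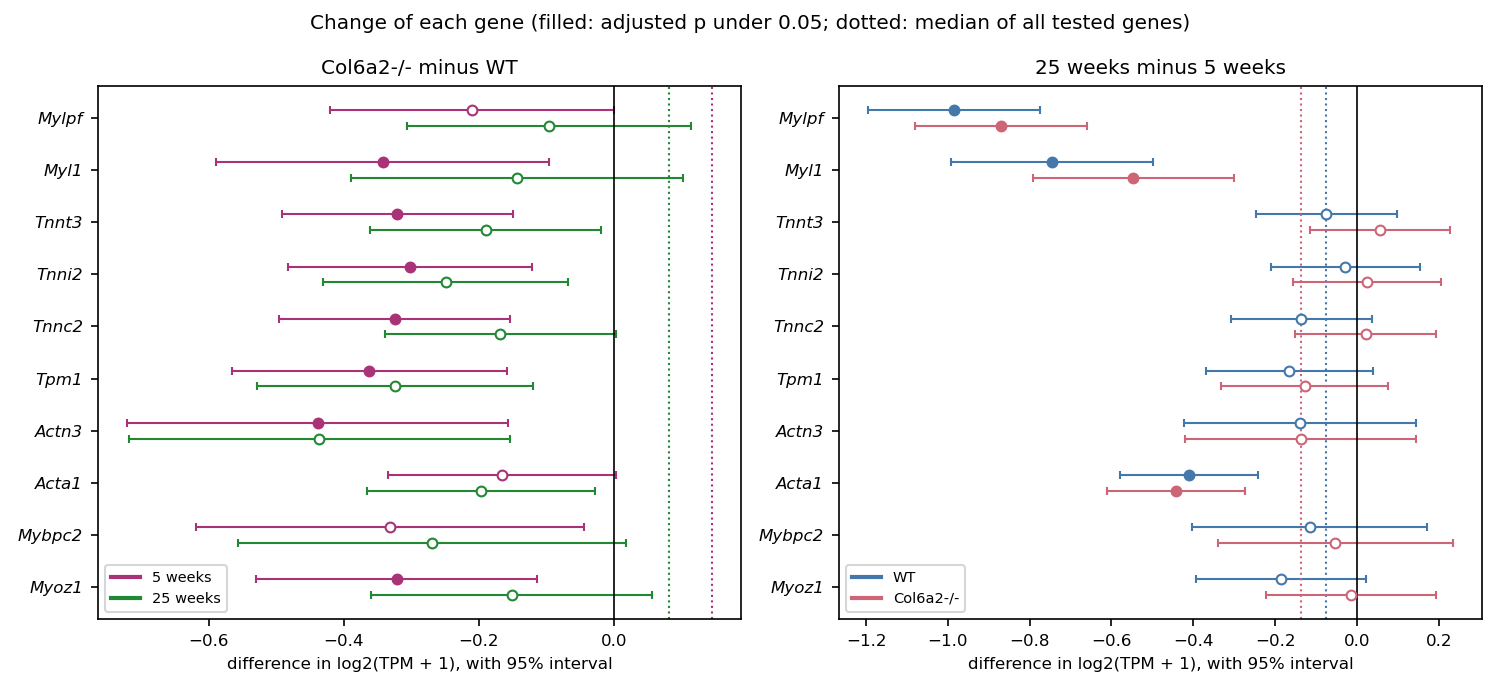
Differences in log2(TPM + 1) with unadjusted 95% intervals for the 10 genes, on the left Col6a2-/- minus WT at each age and on the right 25 minus 5 weeks in each genotype; filled points had a limma adjusted p under 0.05 and dotted lines show the median of all tested genes. On the left all points lie below 0 with 7 filled at 5 weeks, and on the right only Mylpf, Myl1 and Acta1 are filled.

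Within the sexes, all 10 differences at 5 weeks were negative in both. A few depended on the setting: after quantile normalization Mylpf (0.14) and Acta1 (0.020) in females and Tnnt3 (0.069) and Acta1 (0.13) in males were above 0. Without Col6a2-/- female 3, Mylpf (0.017) and Mybpc2 (0.028) were above 0 in females. In males 1 gene was called, Tpm1 (-0.49, SE 0.141, limma adjusted p 0.0399), beside 5.03% of all genes (0.484% as lower), and all 10 had an unadjusted p under 0.05, as did 19.6% of all genes. The 4 male Tpm1 values were 5857, 4993, 5884 and 5662 TPM in WT and 3916, 3749, 4561 and 3783.5 in Col6a2-/-, with no overlap. The same absence of overlap held in males for Tnnt3, Tnnc2 and Myoz1, and for 1.55% of all genes as lower. The Tpm1 call in males was lost in 6 of the fits that left out 1 library, those without WT male 1, 3 or 4 or Col6a2-/- male 1, 2 or 4 of this age, with differences that stayed between -0.48 and -0.46. In 5-week females 0 of 10 were called by limma beside 12.9% of all genes, and 3 had an unadjusted p under 0.05 (29.3% of all genes). None of the 10 lay wholly lower in the Col6a2-/- females than in the WT females, as 0.663% of all genes did. Their 4 Col6a2-/- libraries were far apart: Tpm1 had 4279, 5602, 2947 and 4021 TPM, and Mybpc2 had 644, 1039.8, 389 and 624. At 25 weeks 0 of 10 were called by limma in either sex, beside 0.0078% of all genes in females and 3.03% in males; 3 had an unadjusted p under 0.05 in females (4.85% of all genes) and 1 in males (19.8%). Tnni2 and Tpm1 lay wholly lower in the Col6a2-/- than in the WT males at 25 weeks, as held for 0.616% of all genes. In 25-week females none of the 10 lay wholly lower in Col6a2-/-, against 0.999% of all genes. The difference of the genotype effect between the sexes was called by limma for 0 of 10, beside 0.0156% of all genes, and none had an unadjusted p under 0.05 (1.61% of all genes); estimates ran from -0.14 for Tpm1 to -0.023 for Actn3.

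TPM is a share of a fixed total, so values of abundant mRNAs and of all other genes depend on each other, and the scaling was therefore varied. When mitochondrial and Rn7s genes were left out of the total, the same number of the 10, 7, was called at 5 weeks, and Tpm1 (-0.40, limma adjusted p 0.0148), Actn3 (-0.51, limma adjusted p 0.0216) and Tnni2 (-0.32, limma adjusted p 0.0432) were called at 25 weeks. The shares of all genes called as lower under that scaling were 1.81% at 5 weeks and 0.406% at 25 weeks. When the contractile genes of all lists were left out of it as well, 7 and 2 were called, beside 1.97% and 0.343%. Rescaling without the 100 most abundant genes called 10 at 5 weeks and 6 at 25 weeks, while the share of all genes called as lower was 7.99% and 2.09%, against 2.14% and 0.234% as deposited. Median-of-ratios size factors, which place the median gene near 0, called 10 and 7, beside 11.5% and 4.15% of all genes as lower. The differences at 5 weeks then ran from -0.36 for Acta1 to -0.63 for Actn3. The direction at 5 weeks was negative for all 10 genes under these 4 scalings and as deposited.

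Quantile normalization gives every library the same set of values. It called 4 at 5 weeks (Tnnc2, Tpm1, Actn3 and Myoz1) and 1, Actn3, at 25 weeks, beside 13% and 2.85% of all genes as lower. Under it Tnnt3 became -0.075 (limma adjusted p 0.651) and Myl1 -0.13 (limma adjusted p 0.419), and Acta1 turned to 0.076 at 5 weeks and Mylpf to 0.027 at 25 weeks. The balance of all genes moved too: of those called at 5 weeks, 91.6% were higher with TPM as deposited, 52.3% with median-of-ratios factors, 65.3% without the 100 most abundant genes and 45.8% after quantile normalization. At 25 weeks these shares were 95.03%, 58.5%, 75.3% and 57.0%. The median difference of all genes at 5 weeks went from 0.15 to 0.00062 with median-of-ratios factors.

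**Figure D3:**
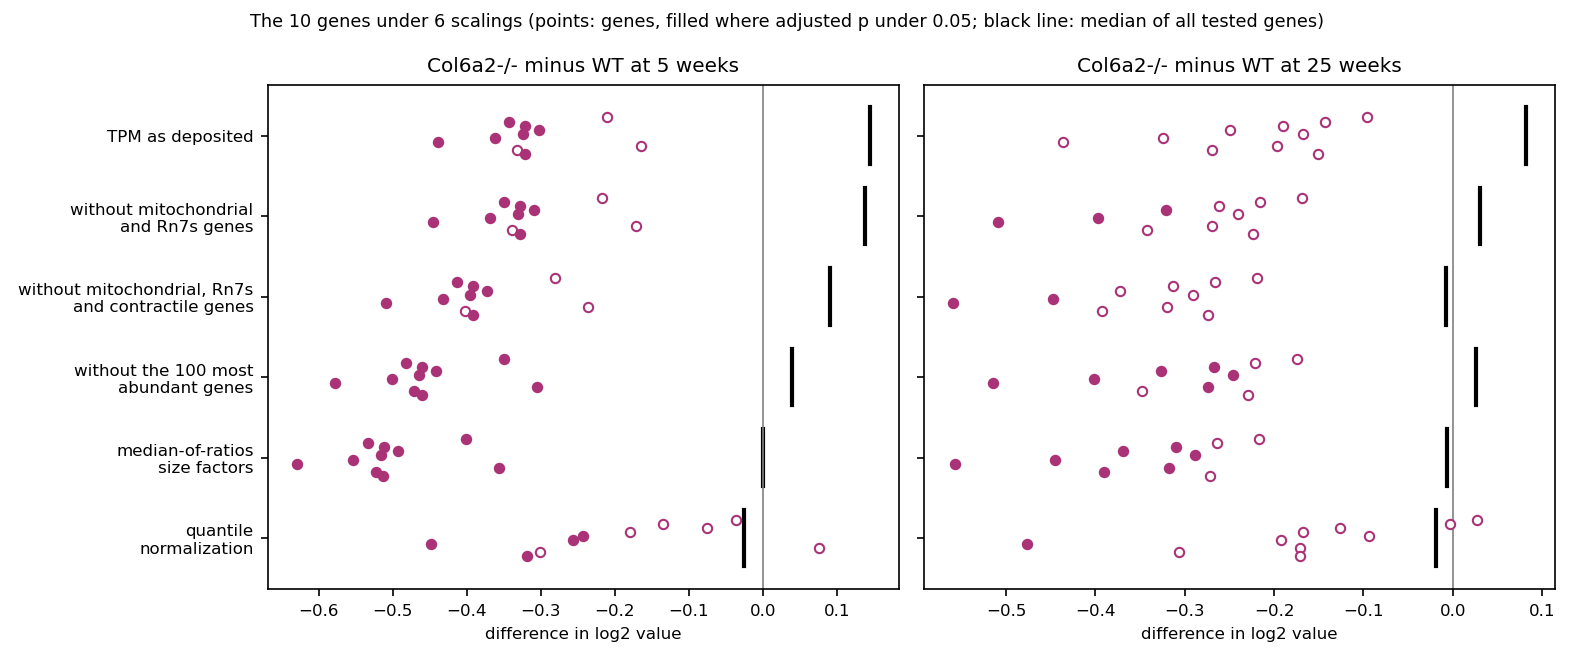
Difference in log2 value between Col6a2-/- and WT for the 10 genes (points, filled where the limma adjusted p was under 0.05) under 6 scalings at 5 weeks (left) and 25 weeks (right); the black line is the median of all tested genes. The points lie left of that line in nearly every row, and at 5 weeks under quantile normalization Acta1, at 0.076, lies right of it, as do Mylpf (0.027) and Myl1 (-0.0027) at 25 weeks.

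With age the 10 genes split at the test threshold, and no difference between the called and the other genes was tested. The age comparisons share their libraries with the genotype comparisons above. Mylpf, Myl1 and Acta1 were lower at 25 than at 5 weeks in both genotypes, and the other 7 were not called in either. In WT, 3 of 10 were called, beside 19.8% of all genes (15.3% as lower), and in Col6a2-/- 3 of 10, beside 34.2% (28.8% as lower). The count in Col6a2-/- is thus near the share of all genes called lower. Median differences of all genes were -0.076 and -0.14.

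Mylpf had the largest change. WT libraries had 6573, 8829 and 10825 TPM as lowest, median and highest at 5 weeks and 3527, 4583 and 5478 at 25 weeks, with no overlap. It fell by 0.98 on the log2 scale (SE 0.103, limma adjusted p 6.17e-08) in WT. In Col6a2-/- it had 5899, 7731 and 9794 TPM and then 3719.8, 4100.4 and 5459, again without overlap, and it fell by 0.87 (SE 0.103, limma adjusted p 2.32e-07). Ages that do not overlap, with the older lower, were found for 2.3% of all genes in WT and 1.88% in Col6a2-/-. Myl1 went from 7989 ± 1444 to 4730 ± 650 TPM in WT (SD, n = 8) and fell by 0.75 (SE 0.120, limma adjusted p 5.28e-05); in Col6a2-/- it fell by 0.55 (limma adjusted p 0.000914). Its ages overlapped, in WT only through WT male 4 of the older group, at 6222 TPM. Acta1 went from 8538 ± 809 to 6451 ± 893 TPM in WT and fell by 0.41 (SE 0.0826, limma adjusted p 0.000692). In Col6a2-/- it went from 7627 ± 928 to 5619.6 ± 714 TPM and fell by 0.44 (limma adjusted p 0.000159), there with no overlap. Actc1, whose reads may be shared with Acta1, fell far more over the same ages, from 1416 ± 873 to 62.1 ± 52.1 TPM in WT (-4.68, limma adjusted p 2.37e-13) and from 1082 ± 474 to 70.6 ± 14.4 in Col6a2-/- (-3.80, limma adjusted p 1.02e-11); its part in the Acta1 values was not tested. The Acta1 call in WT was lost after quantile normalization (-0.16, limma adjusted p 0.178); the calls of Mylpf and Myl1 held in all alternatives.

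The troponins, Tpm1, Actn3, Mybpc2 and Myoz1 had age differences between -0.19 and -0.028 in WT and between -0.14 and 0.057 in Col6a2-/-. Without WT male 4 of the older group, those in WT ran from -0.25 for Myoz1 to -0.083 for Tnni2, and none was called. Tnnt3 in Col6a2-/- was called as higher with age under median-of-ratios factors (0.24, limma adjusted p 0.0163) and without the 100 most abundant genes (0.20, limma adjusted p 0.0314). Those scalings called 16.4% and 13.7% of all genes higher with age in Col6a2-/-, against 5.41% as deposited.

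A ratio of summed TPM within a library does not depend on the total to which that library is scaled. Of the summed TPM of the 10 genes, the light chains Mylpf and Myl1 made up 32.3 ± 2.61% in young WT and 32.6 ± 2.42% in young Col6a2-/- muscle (SD, n = 8). In the older mice they made up 22.8 ± 1.19% and 24.1 ± 1.30%. The lowest 5-week share, 28.4%, was above the highest 25-week share, 25.8%. Shares of 1 total move against each other, and the troponins, whose TPM was not called with age in either genotype, went from 36.2 ± 2.24% and 35.3 ± 1.86% to 44.0 ± 1.01% and 44.04 ± 1.37% of the sum. Their highest share at 5 weeks, 39.4%, was below the lowest at 25 weeks, 42.1%. Acta1 held 16.4 ± 1.07%, 17.8 ± 1.58%, 15.9 ± 1.47% and 15.9 ± 0.964% in WT and Col6a2-/- at 5 weeks and WT and Col6a2-/- at 25 weeks. Between genotypes of 1 age the shares of light chains, troponins and actin overlapped. The sum of the 10 genes itself was 52260.2 ± 5298 TPM in young WT and 43177 ± 6268 in young Col6a2-/- muscle, and 40695 ± 4704 and 35371 ± 3600.4 in the older mice.

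**Figure D4:**
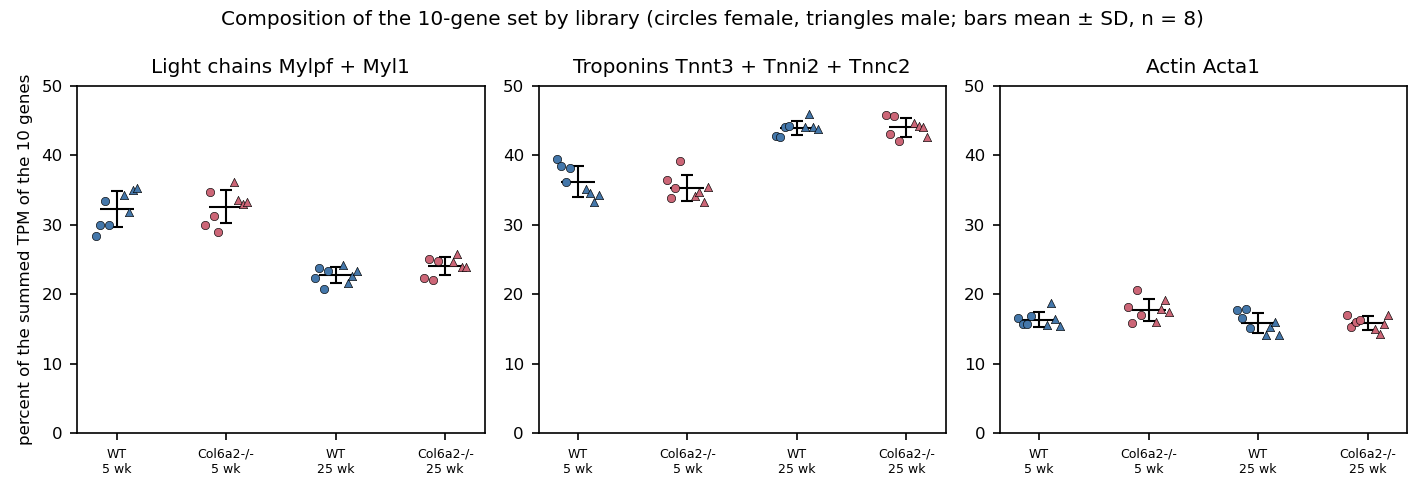
Share of the summed TPM of the 10 genes, in percent, held by the 2 light chains, the 3 troponins and Acta1 in each library (circles female, triangles male, bars mean ± SD, n = 8). The light-chain share is about 32 percent in both genotypes at 5 weeks and 23 to 24 percent at 25 weeks, while the troponin share is higher at 25 weeks.

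Between males and females, with the 4 combinations of genotype and age weighted equally, 0 of 10 were called by limma beside 3.05% of all genes, and 1 had an unadjusted p under 0.05 (13.2% of all genes). That gene was Myl1, at 0.21 higher in males (SE 0.0851, limma adjusted p 0.239). Without Col6a2-/- female 2 of the 5-week group it passed. At 5 weeks WT males had 9713, 7399, 9631 and 9375 TPM of Myl1 and WT females 5743, 7798, 7340.3 and 6915. For Mylpf the WT values at 5 weeks were 10599, 8642, 10231 and 10825 TPM in males and 6573, 8219, 9017 and 7878 in females. At 25 weeks the order of the WT means was the other way for Mylpf, with 4191 ± 875 TPM in males and 4896 ± 413 in females (SD, n = 4), and its difference over all groups was 0.039 (limma adjusted p 0.904). Sexes within 1 age were not tested separately.

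Each of the 10 genes has a counterpart used in slow, cardiac or embryonic muscle, in order Myl2, Myl3, Tnnt1, Tnni1, Tnnc1, Tpm3, Actn2, Actc1, Mybpc1 and Myoz2. By limma 0 of these 10 passed for genotype at either age; 1 had an unadjusted p under 0.05 at 5 weeks (Actn2) and 3 at 25 weeks (Tnnt1, Tpm3 and Actc1), against 38.7% and 19.3% of all genes. At 5 weeks their differences had a median of 0.28 and ran from -0.27 for Actc1 to 0.76 for Tnni1. At 25 weeks all were positive, from 0.30 for Mybpc1 to 1.11 for Tnnc1, with a median of 0.74. These values leaned on WT male 4, which had 0.144 TPM of Tnnc1, 0.549 of Myl2 and 0 of Tnni1. Without it the Tnnc1 difference was 0.54, the median of the 10 was 0.41, Myl3 (-0.13) and Myoz2 (-0.048) were below 0, and limma again called 0, with 2 at an unadjusted p under 0.05. At 5 weeks Actn2, at 0.50, passed when that library was left out of the estimate of spread (limma adjusted p 0.0140). Female mice alone gave a median difference of -0.18 at 5 weeks and 0.079 at 25 weeks, against 0.73 and 1.42 for males alone. The 1.42 includes WT male 4, without which the median over both sexes fell from 0.74 to 0.41. In 25-week males 1 of the 10, Actc1, was called (1.46, SE 0.363, limma adjusted p 0.0272), beside 2.91% of all genes called higher. WT male 4 had the highest Actc1 value of the WT males of this age, 46.6 TPM, where the lowest was 15.3. In the other sex and age groups 0 were called. The difference of the genotype effect between the sexes was called by limma for 0 of the 10, with 1 (Tpm3) at an unadjusted p under 0.05. Between males and females themselves, 2 of the 10 were called lower in males, beside 1.18% of all genes. They were Myl2 (-1.65, limma adjusted p 0.0461) and Tnni1 (-1.25, limma adjusted p 0.0282), with WT male 4 included. The spread of the 10 counterparts was far wider than that of the fast genes: Myl2, the slow regulatory light chain, ran from 0.549 to 503 TPM in WT and from 91.4 to 548 in Col6a2-/- at 25 weeks. The log2 ratio of each fast gene to its counterpart, with 1 TPM added to both, overlapped between genotypes at both ages. Where a counterpart is near 0, as in WT male 4, the added 1 TPM sets much of that ratio. For the sums of 9 pairs, without the actins, this ratio (SD, n = 8) was 5.75 ± 0.711 in young WT and 5.13 ± 0.520 in young Col6a2-/- muscle. In older mice it was 5.45 ± 1.25 and 4.74 ± 0.410; WT male 4 had 8.36, and without it the WT mean was 5.04 ± 0.457 (n = 7) and the difference between genotypes -0.30. At 5 weeks it was 5.34 ± 0.305 in WT and 5.22 ± 0.621 in Col6a2-/- females, and 6.16 ± 0.805 and 5.04 ± 0.473 in males (SD, n = 4); the difference between the sexes was not tested.

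Over all tested genes 23.2% were called higher and 2.14% lower at 5 weeks, and 4.47% and 0.234% at 25 weeks. Among 9 further genes of fast fibres, 4 fell and none rose in Col6a2-/- at 5 weeks: Ampd1, the AMP deaminase of muscle (-0.64, SE 0.143, limma adjusted p 0.00187), Mylk2, the kinase that phosphorylates the regulatory light chain (-0.44, limma adjusted p 0.00457), Pvalb, the calcium buffer parvalbumin (-0.51, limma adjusted p 0.0161), and Myh4, the IIB myosin heavy chain (-0.43, limma adjusted p 0.0456). Mylk2 was lower than the WT mean of its sex in 8 of 8 Col6a2-/- libraries and the others in 7. Without Col6a2-/- females 2 and 4 of this age Atp2a1, the fast calcium pump, was called too (-0.30, limma adjusted p 0.0474). Myh1 at 0.45 and Myh2 at 0.25, the IIX and IIA heavy chains, were on the other side of 0 and not called, although Myh1 passed without WT male 4 of the older group (limma adjusted p 0.0403). At 25 weeks 1 of the 9 fell, Mylk2, from 129 ± 18.2 to 92.0 ± 16.9 TPM (SD, n = 8; -0.49, SE 0.111, limma adjusted p 0.0102). With age Mylk2 rose in WT by 0.71 (limma adjusted p 3.15e-05), whereas its substrate gene Mylpf fell; Casq1, the calcium store protein calsequestrin-1, fell by 0.93 (limma adjusted p 1.24e-05). In WT 1 of the 9 rose with age and 2 fell, beside 4.47% and 15.3% of all genes, and in Col6a2-/- 2 rose and 2 fell, beside 5.41% and 28.8%.

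Among 7 contractile genes of developing muscle 3 rose in Col6a2-/- at both ages, Myl4, Myh3 and Tnnt2, beside 23.2% of all genes called higher at 5 weeks and 4.47% at 25 weeks. Tnnt2, the troponin T of heart and embryonic muscle, went from 1.16 ± 0.295 to 6.33 ± 2.07 TPM at 5 weeks (1.72, SE 0.140, limma adjusted p 4.9e-10) and from 0.782 ± 0.210 to 1.52 ± 0.545 at 25 weeks (0.48, limma adjusted p 0.0453), SD, n = 8. The rise was smaller at 25 weeks by the test of that difference itself for Myl4 (-2.55, limma adjusted p 1.56e-08), Myh3 (-1.63, limma adjusted p 5.39e-05) and Tnnt2 (-1.24, limma adjusted p 0.000564), a comparison in which 0.492% of all genes were called in either direction. The Tnnt2 call at 25 weeks was lost without WT male 4 (limma adjusted p 0.0693). Even at its highest it was a small fraction of Tnnt3, the fast form. Of 22 other sarcomere genes 2 rose at 5 weeks, the chaperone gene Cryab (0.49, limma adjusted p 0.0189) and the M-band gene Myom3 (0.82, limma adjusted p 0.025), and 1 fell, Tmod4, which caps thin filaments (-0.24, limma adjusted p 0.047); a smaller share of this list than of all genes was thus called higher. Of 9 genes for folding and turnover of filaments, Trim63 (the ligase MuRF1; 0.41, limma adjusted p 0.0156) rose and Xirp2 (-0.40, limma adjusted p 0.0087) fell, beside 23.2% and 2.14% of all genes. Without Col6a2-/- females 2 and 4, Myom1 (-0.26), Capza2 (-0.30) and Trim54 (-0.32) were also called as lower at 5 weeks, and Trim63 lost its call (limma adjusted p 0.0805). At 25 weeks limma called 0 of these 22 and 0 of these 9, with 1 of each at an unadjusted p under 0.05.

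Of 16 regulators of fast-fibre genes 15 could be tested. At 5 weeks 2 rose, Myod1 (0.58, SE 0.177, limma adjusted p 0.017) and Mef2a (0.40, SE 0.147, limma adjusted p 0.0466), each above the WT mean of its sex in 6 of 8 Col6a2-/- libraries; this is a smaller share than the 23.2% of all genes called higher. Eya1 (-0.076), Tbx15 (-0.011) and Srf (-0.10) were not called. Without Col6a2-/- females 2 and 4 Mef2a lost its call (limma adjusted p 0.0543) and Sox6, a repressor of slow-fibre genes, was called as lower (-0.37, limma adjusted p 0.0345). The balance also turned with the scaling, since median-of-ratios factors called 1 as higher and 5 as lower and quantile normalization 0 and 6. The balance of all genes moved too, from 23.2% higher and 2.14% lower as deposited. With median-of-ratios factors it was 12.7% and 11.5%, still with more higher, and after quantile normalization 11% and 13%. With age Eya1 (0.40, limma adjusted p 0.0057) and Vgll2 (0.54, limma adjusted p 0.00703) rose in Col6a2-/-, beside 5.41% of all genes called higher. In WT 1 of the 15 regulators rose with age, beside 4.47% of all genes.

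The 10 genes varied together between mice of 1 group. After group means were removed, Pearson's r between 2 of them over the 32 libraries ran from 0.54 (Myl1 with Tnni2) to 0.94 (Tnnc2 with Tpm1), with a median of 0.78 over 45 pairs. Among 2929 genes with a mean of at least 10 TPM, the 5 whose pattern was most like their mean were Myh4 (r = 0.94), Pgm2 (0.92), Pvalb (0.91), Cacng1 (0.91) and Ckm (0.91). Under 5 other scalings 2 or 3 of these 5 remained among the first 5. The values of a library share its depth and its composition, so these correlations describe the libraries and were not tested.

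Some markers of other cells were higher in Col6a2-/-, in a comparison where 23.2% of all genes were called higher at 5 weeks and 4.47% at 25 weeks. All 5 macrophage markers (Adgre1, Cd68, Csf1r, Mrc1 and Cd163) rose at 5 weeks, their sum running from 18.0 to 32.2 TPM in WT and from 20.1 to 72.0 in Col6a2-/-, and 4 of 5 rose at 25 weeks. Of 6 fibroblast markers 4 rose at each age; their sum at 5 weeks ran from 582 to 1429 TPM in WT and from 520.1 to 1939.6 in Col6a2-/-. Of 5 endothelial markers 3 rose at 5 weeks, and of 4 smooth muscle markers 1; none of the tested Schwann cell, fat cell, red cell or tendon markers was called at either age. No macrophage, fibroblast or endothelial marker was at 0 in any library. Without Col6a2-/- females 2 and 4, 3 fibroblast markers rose at 5 weeks, and without WT male 4 of the older group 3 rose at 25 weeks. Of the 5 skeletal muscle markers 1, Ckm, fell at 5 weeks (-0.33, SE 0.0915, limma adjusted p 0.0103), and their sum ran from 4325 to 4920 TPM in WT and from 3385 to 4676 in Col6a2-/-. With age 3 of 6 fibroblast, 2 of 5 endothelial, 1 of 5 macrophage, 2 of 4 tested Schwann cell and 2 of 4 tendon markers fell in WT, beside 15.3% of all genes. In Col6a2-/- 3 fibroblast, 3 endothelial, all 5 macrophage, all 4 Schwann cell, 1 of 4 smooth muscle and 2 tendon markers fell, beside 28.8%. The part of these shifts in the lower TPM of the contractile genes was not tested.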

How the data were processed

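RNA-seq of mouse quadriceps gave 1 table per mouse, 32 in all, in which the authors deposited TPM, FPKM and coverage for each gene. The submitters' processing notes name FastQC, MultiQC, Trimmomatic, HISAT2, SAMtools and StringTie and the builds GRCm38 and mm10; versions, annotation and use of strand are not given in the sources used here. FPKM, as deposited, served as an alternative. Deposited coverage and FPKM together gave the relative depth of each library, since read counts were not used here. TPM was summed per gene ID. Genes reaching 1 TPM in 4 or more libraries were kept (12817), and log2(TPM + 1) was fitted in limma 3.58.1 (R 4.3.3) with a mean for each of 8 groups and a trended prior, over all 32 libraries. P-values were two-sided and adjusted by Benjamini-Hochberg over all tested genes; fold changes are on the log2(value + 1) scale. The fit was tested on simulated data. The labels name no sequencing batch. P-values measure the spread between mice, 1 library each. The members and gene lists were chosen with earlier results of these data known. All 10 members were named. Alternatives varied scaling, pseudocount, filter, unit, weights and replicate block, and left out each library in turn. The smallest and largest inferred depth were 6.78 and 13.69 gigabases; without counts, no counting interval is given. Values of 1 gene of the regulator list are not reported here.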

Additional observations from a re-analysis of the deposited data

Results flagged for a closer look

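Of 80 combinations of gene and group of 4 mice, 13 had a highest or lowest library whose gap to the others exceeded Dixon's 95% critical value for 4 samples; chance gives about 1 in 20. These flags rest on TPM, and shares of what was left without mitochondrial and Rn7s genes were not tested in this way. WT male 4 at 25 weeks was flagged as the highest of its group for 7 genes. It was also the highest, without a flag, for Mylpf, Myl1 and Acta1. It had 9206.0 TPM of Tnnt3 (others 6794.4 to 7190.9), 6344.1 of Tnni2 (4607.3 to 4862.3) and 6390.6 of Tnnc2 (4445.4 to 4656.8). The same library had 6073.9 TPM of Tpm1 (others 4166.8 to 4314.2), 1419.0 of Actn3 (771.9 to 824.1), 954.9 of Mybpc2 (649.8 to 698.5) and 871.1 of Myoz1 (573.8 to 616.1).

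WT female 2 at 5 weeks was the highest of its group for Actn3, at 1340.6 TPM (others 1034.9 to 1039.9), and for Myoz1, at 870.8 (630.1 to 661.8). Col6a2-/- male 3 at 5 weeks was the highest for Acta1, at 9450.1 TPM (6999.0 to 7133.7). The lowest of their groups were WT male 2 at 5 weeks for Myl1, at 7399.1 TPM (9374.6 to 9713.0), WT female 1 at 5 weeks for Tnnc2, at 4864.4 (5610.3 to 5718.0), and WT female 1 at 25 weeks for Tpm1, at 4431.0 (4714.4 to 4744.8).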

How the results depend on the processing

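Over 14 alternatives 139 of 140 differences at 5 weeks and 139 of 140 at 25 weeks stayed below 0, and none of those called turned its sign. Of the 10 genes, 7 were called at 5 weeks, 4 after quantile normalization, and between 4 (without Col6a2-/- female 3 of that age) and 9 with 1 library left out. At 25 weeks, where 0 were called, median-of-ratios factors gave 7, removal of the 100 most abundant genes 6, removal of mitochondrial and Rn7s genes 3, that with contractile genes 2, quantile normalization 1, a pseudocount of 0.1 1, library weights 3, and both libraries of lowest weight left out (added after seeing the data) 2; leaving out 1 library gave 0 to 2. The share of all genes called lower in those 8 settings was 4.15%, 2.09%, 0.406%, 0.343%, 2.85%, 0.273%, 0.874% and 0.465%, against 0.234%. For sex, 0 became 1 with quantile normalization, weights or those 2 left out, and 0 to 1 with 1 left out. In those first 3 settings all genes called higher and lower were 3.75% and 2.71%, 4.57% and 2.64%, and 3.07% and 1.31%. As deposited they were 1.87% and 1.18%. In 5-week females 0 became 7 with median-of-ratios factors, 6 without the top 100, 5 with weights and 3 without the 2 libraries, while the share of all genes called lower went from 0.57% to 5.96%, 3.47%, 2.2% and 1.1%. In 5-week males 1 became 10, 10, 3 and 4 in these settings, 0 without mitochondrial and Rn7s genes, 0 with contractile genes also removed, 0 without a filter, 2 after quantile normalization and 3 with FPKM, and 0 to 3 with 1 left out; the shares of all genes called lower in these 9 settings were 3.67%, 2.96%, 0.772%, 0.867%, 0.296%, 0.25%, 0.264%, 4.25% and 0.819%, against 0.484%. In 25-week males 0 became 4 with median-of-ratios factors (2.44% of all genes) and 1 without the top 100 (0.952%), against 0.117%. The age count of 3 in WT was 2 after quantile normalization, where the share of all genes called lower went from 15.3% to 13.1%. That of 3 in Col6a2-/- was 4 with median-of-ratios factors and 4 without the top 100. The share of all genes called higher with age there went from 5.41% to 16.4% and 13.7%. Leaving out 1 library moved neither count. Myl1 at 5 weeks also lost its call without a filter (limma adjusted p 0.0901) and with length and GC trends removed (0.0507). The cause of these shifts was not tested. Nothing in the labels says that a replicate number marks a shared litter or day, so the numbers were not taken as pairs. Of 16 same-numbered pairs of WT and Col6a2-/- libraries, 8 correlated above 0.1 (-0.061 to 0.234), 6 of them at 5 weeks. With the replicate number as a block the counts were 7, 0, 0, 3, 3, 0, 0, 0, 1, 0 and 0, as without it. That block gives each number 1 common shift over all 8 groups. Pairs within an age and sex were not fitted, so these counts do not show what pairing would change. Depth is known only in relative terms, and 4 mice per sex and age limit the tests within sexes.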
